A study of Mus musculus with 14 samples.

Results

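Complex I (NADH:ubiquinone oxidoreductase) was examined gene by gene in gastrocnemius, a calf muscle built mainly of fast fibres, from mice carrying subcutaneous Panc02 pancreatic tumours. All genes whose symbol begins with Nduf followed by a, b, c, s or v and a number were taken, together with Ndufab1, which gave 38 of the 19505 genes on the array. The assembly factors, whose symbols begin with Ndufaf, were kept apart. Of the 38 genes, 6 encode core subunits (Ndufs1, Ndufs3, Ndufs7, Ndufs8, Ndufv1 and Ndufv2) and 32 are grouped here as accessory. Ndufb1 and the subunits encoded in mitochondrial DNA were not analysed here.

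The 14 arrays comprised 7 muscles of unsupplemented mice (control) and 7 of mice given β-hydroxy-β-methylbutyrate (HMB), which the body makes from leucine and which is taken as a supplement to preserve muscle. Mice of both groups were male C57BL/6 carrying the same transplanted tumour, and both received the AIN-93G diet, with the calcium salt of HMB added in the second group from 1 week before tumour cells were injected. The ages of the mice at tissue collection are not given in the labels. The treatment text of the labels also names anti-PD1 antibody (200 µg every 3 days). No label states which of these 14 mice received antibody or isotype, so its part in the values was not tested. The tumour was transplanted under the skin, and the study describes the model as one without cachexia. The tissue field names gastrocnemius whereas the extraction text speaks of tumour, so muscle genes were checked: Acta1, the actin of skeletal muscle, lay between 18.82 and 19.24 on all arrays and Ckm, the muscle creatine kinase, between 17.11 and 17.85.

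Complex I is the first and largest enzyme of the respiratory chain. It takes electrons from NADH, passes them along a chain of iron-sulphur clusters to ubiquinone, and couples this to proton pumping across the inner mitochondrial membrane. The N module oxidises NADH, the Q module reduces ubiquinone, and a proximal and a distal membrane arm hold the pumps. Core subunits carry the catalytic centres and are conserved from bacteria, while accessory subunits surround them and serve assembly and stability. In muscle the complex supplies much of the energy of oxidative fibres. Ndufa4 and Ndufa4l2 match the naming rule, but Ndufa4 is placed with complex IV and Ndufa4l2, its close relative, is known as a hypoxia-induced gene, so both are described separately.

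Promoters of 3 genes that recur in the results are shown first, as the 250 bases before the RefSeq start site on GRCm38.p6. Ndufb8 had the smallest p of the 38 genes, Ndufa11 held the NRF1 letters on both strands, and Ndufs7 had the largest difference among the core genes. Ndufb8 lies on the minus strand (chr19:44555443-44555692), Ndufa11 on the plus strand (chr17:56717512-56717761) and Ndufs7 on the plus strand (chr10:80249199-80249448). The RefSeq span of Ndufs7 begins upstream of the start used, so its window lies within that span. Capitals mark a match to 1 of 3 motifs of factors known to act on respiratory chain genes: the core of the NRF1 motif (GCATGCG or CGCATGC, which overlap where both occur), ETS, the motif of the GABP factor (CCGGAA or TTCCGG), and ERR, the motif of oestrogen-related receptors (AAGGTCA or TGACCTT).
Ndufb8: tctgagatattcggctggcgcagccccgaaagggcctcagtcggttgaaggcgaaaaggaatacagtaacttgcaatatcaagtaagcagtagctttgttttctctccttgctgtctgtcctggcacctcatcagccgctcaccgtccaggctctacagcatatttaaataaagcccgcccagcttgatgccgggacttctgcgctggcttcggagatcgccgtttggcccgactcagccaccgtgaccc
Ndufa11: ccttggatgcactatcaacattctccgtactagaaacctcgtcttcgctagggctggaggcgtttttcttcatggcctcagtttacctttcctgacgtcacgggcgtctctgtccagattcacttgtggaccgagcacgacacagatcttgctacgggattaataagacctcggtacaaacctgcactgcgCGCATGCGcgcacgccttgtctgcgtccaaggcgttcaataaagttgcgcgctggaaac
Ndufs7: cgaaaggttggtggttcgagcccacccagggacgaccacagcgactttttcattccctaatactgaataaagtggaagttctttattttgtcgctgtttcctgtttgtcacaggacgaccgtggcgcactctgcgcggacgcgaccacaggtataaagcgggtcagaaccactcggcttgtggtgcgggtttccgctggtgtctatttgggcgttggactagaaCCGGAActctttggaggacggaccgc
The Ndufa11 window held the NRF1 letters on both strands from 59 bases before the start, the Ndufs7 window held the ETS letters 26 bases before it, and the Ndufb8 window held none of the 3 motifs. RefSeq promoters were matched for 34 of the 38 genes. Among these, NRF1 letters stood before 3 genes (Ndufa6, Ndufa8 and Ndufa11), ETS letters before 8 (Ndufa9, Ndufa10, Ndufb6, Ndufb7, Ndufs3, Ndufs7, Ndufv1 and Ndufv3) and ERR letters before 3 (Ndufb2, Ndufb4 and Ndufs5). The same letters stood in 3.02%, 12% and 4.08% of all 32851 promoters of that length. In the windows shown no match to 1 motif overlapped a match to another, and a match describes the letters alone.

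All values are in log2 units as deposited, written as mean ± SD with n = 7 arrays per group unless another n is given. Levels of different genes come from different probes and are not compared with each other. The 95th percentile of intron control probesets, taken as background, ran from 10.53 to 10.87 over the arrays. Of the 38 genes, 34 lay above it on all 14 arrays, Ndufb8 on 13 and Ndufv3 on 4, and Ndufa7 and Ndufa4l2 on none. Control 7 stood apart from the other arrays. Its B cell markers averaged 10.76 (11 genes, other arrays 3.58 to 4.17), with Cd79a, part of the B cell receptor, at 13.16 (other arrays 3.37 to 5.07). Its T cell markers averaged 10.01 (8 genes, other arrays 4.68 to 5.61), with Cd3e, part of the T cell receptor complex, at 12.06 (other arrays 2.77 to 5.56), and its adipocyte markers averaged 14.65 (9 genes, other arrays 9.76 to 13.34). Macrophage markers (10 genes) were at 8.98, within the range of the other arrays (7.89 to 10.06), and fast fibre and skeletal muscle genes (16) were at 18.01, where the other arrays ran from 17.48 (control 2) to 18.25. Control 7 was the lowest of the 14 arrays for 5 of these 16 genes, beside 19.1% of all genes and 34.6% of those at or above the intron percentile. Among the 5 were Acta1 (18.82, other arrays 18.94 to 19.24) and Ckm (17.11, other arrays 17.14 to 17.85). The muscle genes Myh4 (19.03, other arrays 18.98 to 19.54) and Mylpf (18.27, other arrays 18.10 to 18.40) lay within the range of the other arrays. Whether control 7 held less muscle RNA was not tested, and fewer fibres and less RNA per fibre cannot be told apart in whole muscle. The main counts and means below are therefore given with and without control 7, and the part of these markers in the results was not tested.

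The diets were compared to learn whether supplementation changes the muscle transcriptome. Across the 38 complex I genes the HMB means were slightly higher, and most of that distance rested on control 7. The mean over the 38 genes was 14.31 ± 0.26 in control and 14.46 ± 0.09 in HMB, a difference of 0.14, and without control 7 it was 0.05. With all arrays 36 of the 38 genes had a higher mean in HMB (51.7% of all 19505 genes, and 60.6% of the 4549 genes whose mean was at or above the intron percentile). Without control 7 the count was 26 of 38 (49.8% of all genes, and 52.9% of the brighter ones). With each array centred on its median, 38 of 38 genes and 64.2% of all genes were higher.

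No complex I gene passed the adjusted threshold of 0.05 in limma (0 of 19505 genes passed, 0%), where the adjusted p values of the 38 genes ran from 0.990 to 0.999. At an unadjusted p under 0.05 the count was 1 of 38, Ndufb8, beside 4.54% of all genes and 1.47% of the brighter ones. The differences ran from -0.05 (Ndufs1) to 0.48 (Ndufa4l2, below the intron percentile on all arrays) with a median of 0.13, and without control 7 the median was 0.03. The SE of a gene's difference in limma was 0.104 to 0.262, and 23 of the 38 differences were within 1 SE of 0. The groups overlapped for each of the 38 genes, with and without control 7 (0.0974% of all genes did not overlap with all controls, 0.149% without control 7).

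**Figure D1:**
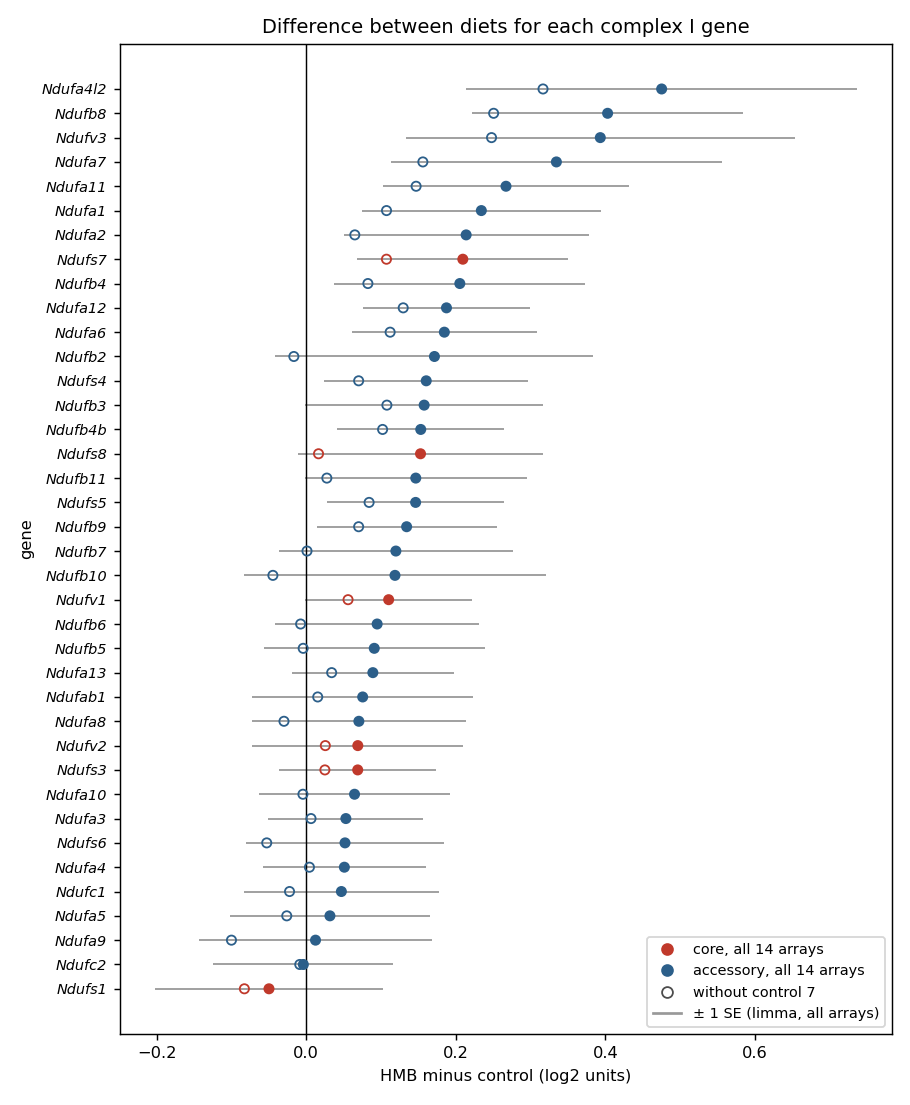
HMB minus control in log2 units for each of the 38 complex I genes, ordered by size, with filled points for all 14 arrays, bars of 1 SE from limma and open points for the difference without control 7. Core genes are red and accessory genes blue. The filled points lie above 0 for 36 genes, and for all 38 the open point lies to the left of the filled one.

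The core subunits had close means in both diets. Their mean was 15.72 ± 0.23 in control and 15.81 ± 0.12 in HMB, a difference of 0.09 (0.02 without control 7), and 5 of 6 had a higher mean in HMB both with and without control 7. None of the 6 reached an unadjusted p under 0.05 (Ndufs7 had the smallest, 0.158, adjusted p = 0.990 by limma).

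In the N module, Ndufv1 binds NADH and the flavin that first accepts its electrons. Its control values ran from 15.34 (median 15.70) to 15.87 and its HMB values from 15.65 (median 15.75) to 15.90. The HMB range lay inside the control range but for its top, and the means differed by 0.11 (SE 0.112, adjusted p = 0.990 by limma), or by 0.06 without control 7. Ndufv2, an iron-sulphur subunit beside it, ran from 15.87 (median 16.16) to 16.42 in control and from 15.66 (median 16.24) to 16.51 in HMB. HMB 3 was the lowest of all 14 arrays for Ndufv2 and HMB 7 the highest, so the HMB group was the wider one (SD 0.27 against 0.18 in control) and the means differed by 0.07 (0.03 without control 7). Ndufs1, the largest N module subunit, which carries several iron-sulphur clusters, was the core gene with a lower mean in HMB. It ran from 14.92 (median 15.31) to 15.76 in control and from 15.11 (median 15.33) to 15.61 in HMB, so the HMB arrays fell within the control range. Its means differed by -0.05 (SE 0.152, adjusted p = 0.996 by limma), and centring each array on its median turned the sign (0.02), as did leaving out control 1 (0.01).

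In the Q module, Ndufs3 is a core subunit without an iron-sulphur cluster. Its values were among the tightest of the core genes, from 15.80 (median 16.09) to 16.21 in control and from 16.01 (median 16.16) to 16.21 in HMB. The highest values of the groups were equal to 2 decimals, and the means differed by 0.07 (0.02 without control 7). Ndufs7 holds the last iron-sulphur cluster before ubiquinone. It ran from 15.24 (median 15.96) to 16.12 in control and from 15.92 (median 16.05) to 16.30 in HMB, with all 7 HMB arrays above the control mean. The difference of 0.21 (SE 0.141) became 0.11 without control 7, with 5 of 7 HMB arrays then above the control mean. Ndufs8, which passes electrons to Ndufs7, ran from 14.43 (median 15.32) to 15.65 in control and from 15.24 (median 15.43) to 15.54 in HMB. Its low end in control was control 7 alone, the next control stood at 15.18, and the difference of 0.15 became 0.02 without that array.

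The accessory genes gave a mean of 14.05 ± 0.27 in control and 14.20 ± 0.08 in HMB. The difference was 0.15 (0.06 without control 7), and 31 of 32 had a higher mean in HMB (21 of 32 without control 7). The core minus the accessory difference was -0.06 (-0.03 without control 7), and -0.05 without Ndufa4 and Ndufa4l2 on all arrays. On single arrays of a group this distance varied with an SD of 0.09, which is not the error of a difference of means. The difference was not tested. The 10 genes with a mean at or above 16 had a median difference of 0.07 (core 0.07, accessory 0.06). For the 28 genes below 16 it was 0.15 (core 0.13, accessory 0.15), and the part of brightness was not tested.

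By module, the 7 N module accessory genes differed by 0.22 on average (0.10 without control 7), with 7 of 7 higher in HMB and 6 of 7 without that array. Among them Ndufv3 lay above the intron percentile on 4 of 14 arrays and Ndufa7 on none, and over the other 5 genes the mean difference was 0.16 (0.06 without control 7). The 11 measured genes of the distal membrane arm differed by 0.16 (0.04) with 11 of 11 higher (7 of 11), and the 9 of the proximal arm by 0.11 (0.03) with 8 of 9 higher (5 of 9). The 2 Q module accessory genes, Ndufa5 and Ndufa9, differed by 0.02 (-0.06 without control 7). Differences between modules were not tested.

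Among the N module accessory genes, Ndufa12 is a subunit whose place is held during assembly by its relative Ndufaf2. It ran from 16.20 (median 16.63) to 16.73 in control and from 16.54 (median 16.75) to 16.80 in HMB. Of the 7 HMB arrays 6 lay between 16.73 and 16.80, where the highest control was also at 16.73, and HMB 1 lay among the controls. The difference was 0.19 (SE 0.112, adjusted p = 0.990 by limma), and 0.13 without control 7. Ndufa6, a small subunit of the LYR family, ran from 13.45 (median 13.98) to 14.10 in control and from 13.89 (median 14.10) to 14.19 in HMB, a difference of 0.18 (0.11 without control 7) with all 7 HMB arrays above the control mean. Ndufa7 ran from 8.77 (median 9.96) to 10.31 in control and from 9.79 (median 10.101) to 10.52 in HMB. Its values lay below the intron percentile on all arrays, and the difference of 0.33 became 0.16 without control 7. Ndufv3, the smallest of the flavoprotein subunits, was among the most scattered genes in both groups, from 9.29 (median 10.22) to 10.72 in control and from 9.95 (median 10.63) to 11.24 in HMB. Only 4 of 7 HMB arrays lay above its control mean, and the difference was 0.39 (SE 0.260, adjusted p = 0.990 by limma), or 0.25 without control 7.

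On the proximal membrane arm, Ndufa11 sits where the complex meets complex III in supercomplexes. It ran from 12.27 (median 13.14) to 13.36 in control and from 13.04 (median 13.28) to 13.61 in HMB. All 7 HMB arrays lay above the control mean, 5 without control 7, and the difference of 0.27 became 0.15. Ndufa1, a small membrane subunit encoded on the X chromosome, ran from 11.67 (median 12.56) to 12.77 in control and from 12.46 (median 12.65) to 12.84 in HMB, a difference of 0.23 (0.11 without control 7). Ndufa13, also known as the cell death regulator GRIM-19, and Ndufa3 were among the 3 genes of smallest SD, and differed by 0.09 and 0.05 (0.03 and 0.0064 without control 7). Ndufc2, a small membrane arm subunit, had equal means of 16.04 ± 0.20 in control and 16.04 ± 0.14 in HMB. It ran from 15.78 (median 16.01) to 16.25 in control and from 15.89 (median 16.004) to 16.23 in HMB, and the sign of its difference depended on the scaling (-0.0038 as deposited, 0.0671 with each array centred on its median) and on single arrays (0.0306 without control 3).

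On the distal membrane arm, Ndufb8 is a subunit whose protein is often blotted as a sign that the complex is assembled. The gene lies at chr19:44548571-44555442 (GRCm38.p6), and its promoter, printed above, held none of the motifs searched. It ran from 10.05 (median 11.12) to 11.34 in control and from 11.12 (median 11.35) to 11.70 in HMB. All 7 HMB arrays lay above the control mean, also without control 7, which no other of the 38 genes showed, although the lowest of them, HMB 6 at 11.12, was level with the mean of the other 6 controls (11.12) and control 2 at 11.34 stood as high as the middle HMB arrays. The means were 10.96 ± 0.43 and 11.37 ± 0.19 and differed by 0.40 (SE 0.181, unadjusted p = 0.0415, adjusted p = 0.990 by limma). Without control 7 the difference was 0.25 (unadjusted p = 0.0627 by limma), and 0 of the 38 genes then had an unadjusted p under 0.05 (4.37% of all genes).

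The remaining distal arm genes gave differences of 0.08 to 0.21. Ndufb4 had the largest of these, and Ndufab1, the mitochondrial acyl carrier protein that also serves fatty acid synthesis, the smallest. Without control 7 they ran from -0.04 (Ndufb10) to 0.11 (Ndufb3), with Ndufb4 at 0.08 and Ndufab1 at 0.02. Ndufb4b is a near copy of Ndufb4 on another chromosome, and probes for the pair may share targets, so its difference (0.15) is uncertain.

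The genes placed outside the complex are given apart. Ndufa4 was at 16.95 ± 0.17 in control and 17.00 ± 0.10 in HMB, a difference of 0.05 (0.0043 without control 7). Ndufa4l2 ran from 7.19 (median 8.27) to 8.70 in control and from 7.59 (median 8.73) to 9.22 in HMB, below the intron percentile on all arrays. Its difference of 0.48 (SE 0.262, adjusted p = 0.990 by limma) became 0.32 without control 7, and with both groups below background its size is uncertain. Without this pair, 34 of 36 genes had a higher mean in HMB and the mean difference was 0.14 (24 of 36 and 0.05 without control 7).

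**Figure D2:**
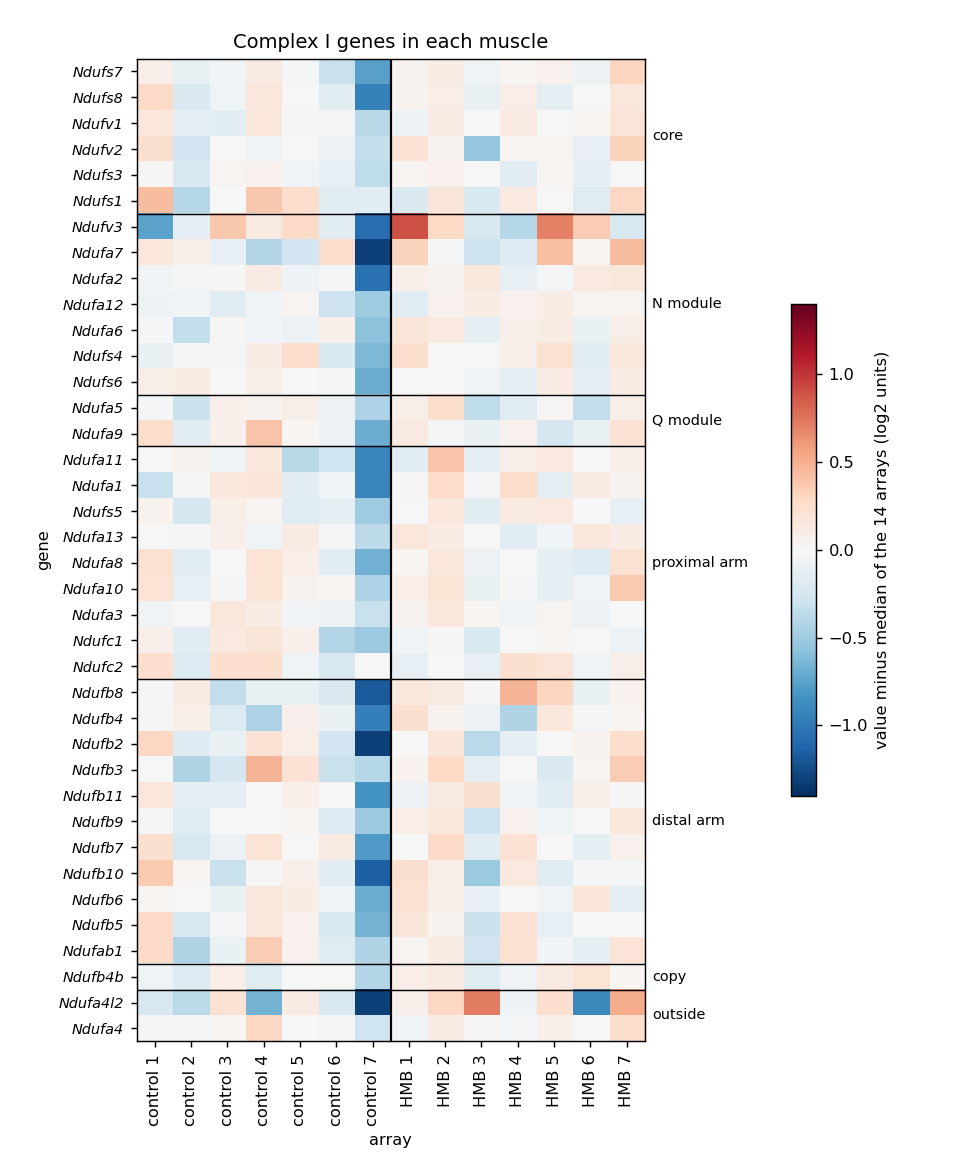
Value of each complex I gene on each array minus that gene's median over the 14 arrays, in log2 units, with blue for lower and red for higher values; rows are grouped by core subunits and by module, and the vertical line parts the 7 control from the 7 HMB arrays. Control 7 is blue for 37 of the 38 genes, and colours on the other arrays are mostly weaker. Control 6 (33), control 2 (31) and HMB 3 (30) are also under the median for most genes, and HMB 2 for only 4.

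The spread between control muscles was wider with control 7 than without it. Over the 38 genes the median SD was 0.30 in control and 0.14 in HMB, and without control 7 the control median was 0.16. The SD was larger in control for 35 of the 38 genes (57.9% of all genes, 65.6% of the brighter ones). Without control 7 it was larger for 22 of 38 (47.5% of all genes, 48.3% of the brighter ones), so the distance between the diets in spread rested on that array. For the N module subunit Ndufa2, chosen after its values were seen, the control SD was 0.40 and became 0.06 without control 7.

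**Figure D3:**
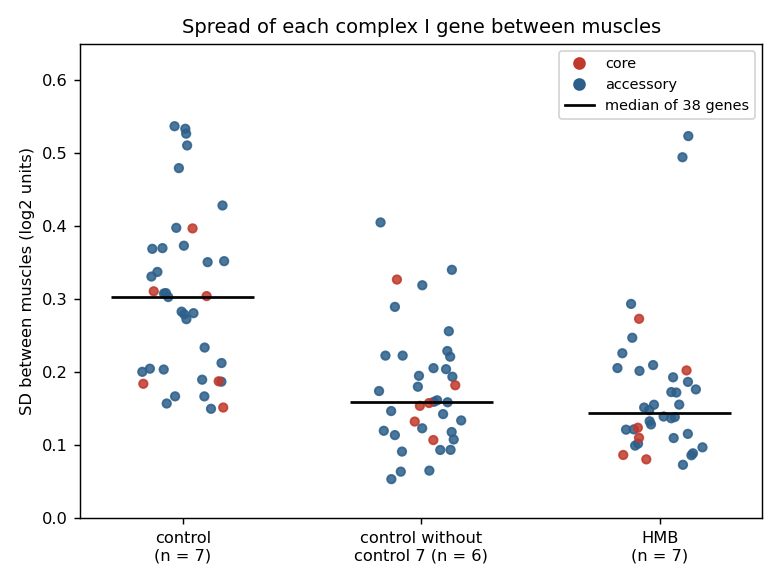
SD between muscles in log2 units of each complex I gene in control (n = 7), in control without control 7 (n = 6) and in HMB (n = 7), with core genes in red and accessory genes in blue; points are spread sideways for visibility. The black line is the median over the 38 genes, at 0.30, 0.16 and 0.14.

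Control 7 was the lowest of all 14 arrays for 33 of the 38 genes (19.1% of all genes, 34.6% of the brighter ones), and below the other 6 controls for 34 (27.7% of all genes, 42.6% of the brighter ones). Its mean over the 38 genes was 13.76, where the other controls ran from 14.29 to 14.50 and the HMB arrays from 14.32 to 14.55. Per gene, control 7 minus the mean of the other controls had a median of -0.65, and the distance was uneven between genes. It was -1.32 for Ndufb2, -1.25 for Ndufa7 and -1.14 for Ndufb10, all of them accessory genes, and -0.03 for Ndufc2. For the core genes the median was -0.34, from -0.95 for Ndufs8 to -0.23 for Ndufs1, and for the accessory genes it was -0.68. The median also differed with brightness. It was -0.34 for the 10 genes with a mean at or above 16 (core -0.31, accessory -0.38). For the 28 genes below 16 it was -0.76 (core -0.55, accessory -0.81), and the part of brightness was not tested. The B cell, T cell and adipocyte markers given above were highest on control 7, and their part in these values was not tested.

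The 5 genes for which another array was lowest were Ndufs1, Ndufab1 and Ndufb3 (control 2), Ndufc2 (control 6) and Ndufv2 (HMB 3). Control 2, control 6 and HMB 3 were the next arrays after control 7 by the number of genes under their own median, with 31, 33 and 30 of 38. At the other end HMB 2 had 4 of 38 under the median, HMB 7 had 6, and HMB 1 and control 4 had 9 each. Low arrays thus occurred in both groups, and the arrays with the fewest genes under the median, HMB 2 and HMB 7, were both HMB.

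The genes varied together from muscle to muscle, and less so without control 7. The array mean carried 52.9% of the summed squared deviations of the 38 genes, and 20.4% without control 7 (2.63% if all genes had varied independently and equally). For the 6 core genes the share was 67.3%, and 59.8% without control 7 (16.7% if independent), and for the 32 accessory genes it was 52.9% and 17.2% (3.13% if independent). Without control 7 the mean over the 38 genes varied by 0.26 from the lowest to the highest array, against 0.79 with it. As a description over these 13 arrays, which share their normalization, Ndufb9 (r = 0.854) and Ndufs7 (r = 0.847) followed the mean of the other genes most closely, and Ndufb11 (r = 0.0114) and Ndufb4 (r = 0.0234) least.

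Slow fibre genes varied far more between these muscles than complex I did. Their mean (10 genes) ran from 7.17 on control 2 to 15.76 on HMB 4, with Myh7, the slow myosin heavy chain, between 4.30 and 15.26. The slope of each complex I gene on that mean within groups, a fit chosen after the values were seen, was above 0 for 26 of 38 genes (46.9% of all genes, 42.4% of the brighter ones) with a median of 0.01 log2 units per unit. It was above 0 for all 6 core genes, with a median of 0.03, and the median of the 32 accessory genes was 0.01. Without control 7, control 2 and HMB 4 together it was above 0 for 5 of the 6 core genes. No complex I gene passed the adjusted threshold in limma (0.272% of all genes did), and at an unadjusted p under 0.05 there were 2, Ndufab1 and Ndufs1 (9.61% of all genes). Ndufab1 had a slope of 0.07 (adjusted p = 0.438 by limma) and Ndufs1 of 0.07 (adjusted p = 0.495 by limma). Without control 2 and HMB 4, the arrays farthest from the median of the slow fibre mean, 31 of 38 slopes were above 0 (47.8% of all genes) and 0 had an unadjusted p under 0.05 (5.87% of all genes). Without control 7, 28 slopes were above 0 (47.1% of all genes), 4 had an unadjusted p under 0.05 (11.3%) and 0 passed the adjusted threshold by limma (0.369%, smallest adjusted p 0.258 among the 38). With the slow fibre mean in the fit, 35 of 38 genes had a higher mean in HMB (22 without control 7), the median difference was 0.11 (0.02 without control 7) and 0 passed the adjusted threshold.

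**Figure D4:**
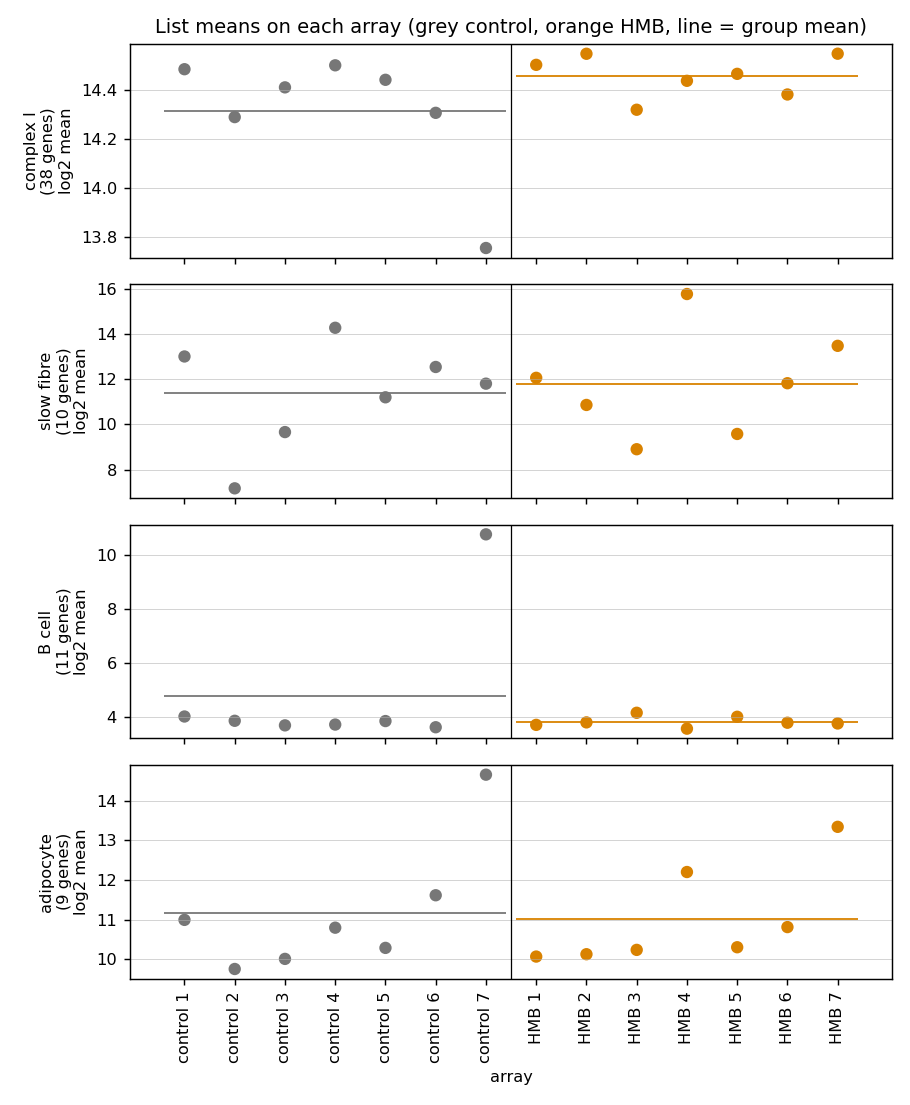
Mean of the complex I, slow fibre, B cell and adipocyte genes on each array in log2 units, with control in grey, HMB in orange and a line for each group's mean; each panel has its own axis, which does not start at 0. Complex I is at 13.76 on control 7 and between 14.29 and 14.55 on all other arrays, and the same array has the highest B cell (10.76) and adipocyte (14.65) means.

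Other genes of the respiratory chain also had slightly higher means in HMB, and again less so without control 7. The 41 genes of complexes II to V had a mean difference of 0.13 (0.06 without control 7), and 39 of 41 had a higher mean in HMB (31 without control 7). Among all genes 51.7% had a higher mean (60.6% of the brighter ones), and without control 7 it was 49.8% (52.9% of the brighter ones). All 10 of complex III had a higher mean (9 without control 7), with Cyc1, cytochrome c1, at 11.83 ± 0.64 in control and 12.25 ± 0.23 in HMB. Its difference of 0.42 became 0.20 without control 7, and that of Uqcr11 went from 0.26 to 0.08. For complex II the count was 4 of 4 (median difference 0.11), and 3 of 4 (0.06) without control 7. Sdhb, the iron-sulphur subunit, and Sdhc, a membrane anchor, differed by 0.14 each (0.11 and 0.09 without control 7). For complex IV it was 11 of 12 (0.08), and 7 of 12 (0.01) without control 7. The muscle isoforms Cox8b and Cox7a1 differed by 0.38 and 0.39 (0.19 and 0.24 without control 7). For ATP synthase it was 14 of 15 (0.10), and 12 of 15 (0.06) without control 7, with Atp5e and Atp5l differing by 0.36 and 0.21 (0.23 and 0.12 without control 7). Atp5e was the single one of the 41 at an unadjusted p under 0.05 (unadjusted p = 0.0495, adjusted p = 0.990 by limma). The share was 4.54% of all genes and 1.47% of the brighter ones. Without control 7 there was none (0 of 41, beside 4.37% of all genes). Control 7 was the lowest of 14 arrays for 35 of the 41 (19.1% of all genes, 34.6% of the brighter ones).

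Of the 19 assembly factors measured, which build the complex but do not stay in it, 15 had a higher mean in HMB and 4 a lower one (10 and 9 without control 7), with a median difference of 0.13 (0.02). Over all genes 51.7% had a higher mean (49.8% without control 7). Of the 19, 6 lay above the intron percentile on all arrays and 9 on none. Tmem186, which helps build the proximal membrane arm, was at 8.99 ± 0.33 in control and 9.30 ± 0.13 in HMB, below the intron percentile, and its difference of 0.31 was 0.29 without control 7. Dmac2, of the distal arm, differed by 0.33 (0.19 without control 7). Of 12 genes of mitochondrial biogenesis 7 had a higher mean (8 without control 7), with a median difference of 0.06 (0.03). Of these 12, 4 lay above the intron percentile on all arrays and 5 on none. Tfb2m, a mitochondrial transcription factor, differed by 0.14 (0.11 without control 7) and Gabpb1, a subunit of the GABP factor named above for the ETS motif, by -0.16 (-0.10). None of these genes passed the adjusted threshold in limma.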

How the data were processed

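Values were from Affymetrix Clariom S mouse arrays, 1 per muscle sample. The authors deposited log2 values of summarised probeset intensity. That scale was inferred from the values, which reach 19.54, so no fold is given; background correction, normalization and genome build are not given in the sources used here, nor is any batch. Groups were taken from the sample titles. The labels do not tie arrays to animals, so p values measure the spread between samples. Of 28846 probesets, 19572 with exactly 1 gene symbol were kept (2634 gene probesets had none), and probesets of a gene were averaged, without a filter on dim genes. HMB and control were compared over all 19505 genes in R 4.3.3 with limma 3.58.1 (lmFit, eBayes, two-sided, Benjamini-Hochberg, threshold 0.05). The same fit was tested on simulated data with known changes, where 16%, 62% and 92% of changes of 0.5, 1 and 2 log2 units and 0.0207% of unchanged genes were called.

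The complex I genes, lists and tests were chosen with earlier results of these data known. Genes described singly are the core subunits, the 8 other genes of smallest unadjusted p, those with a lower mean in HMB, the 3 of largest and 3 of smallest SD, Ndufa4 and Ndufa4l2, and the 2 genes of smallest p from each other list. Others were chosen after their values were seen. Marker lists covered fast and slow fibres, B cells, T cells, adipocytes, macrophages, Schwann cells and nerve, and keratinocytes. Gene positions and promoter sequences were from RefSeq (GRCm38.p6). Alternatives were renewed quantile normalization, median centring, a filter at the median level, the brightest probeset, a trended robust variance prior, weights per array, a block for the replicate number, the t-test of the methods, leaving out each array, leaving out Ndufa4 and Ndufa4l2 and, added after seeing the data, the slow fibre mean as a covariate and slopes without single arrays.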

Additional observations from a re-analysis of the deposited data

Results flagged for a closer look

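Of 42 sets of 7 values examined, 7 held a highest or lowest array whose gap to the nearest other array was wide for the range of its group, where chance gives this in about 1 in 20 groups. In 6 of them the array was control 7. For Ndufb8 it was at 10.05, with the other controls at 10.88 to 11.34. Ndufa7 was at 8.77 on it (other controls 9.66 to 10.31), Ndufs8 at 14.43 (15.18 to 15.65) and Ndufa13 at 15.11 (15.41 to 15.59). The mean over all 38 complex I genes was 13.76 on control 7 (14.29 to 14.50) and that over the 32 accessory genes was 13.47 (14.05 to 14.23). The means include the single genes, so these 6 are not separate observations. The remaining case was Ndufa12 on HMB 1, at 16.54 where the other HMB arrays ran from 16.73 to 16.80.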

How the results depend on the processing

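No gene passed the adjusted threshold in the diet comparison under any setting tried, neither among the 38 nor among all 19505 (smallest adjusted p 0.1224). Of 690 differences under the alternatives, which belong to the 18 complex I genes and 12 others described singly, 679 kept their direction. The 11 that turned belonged to Ndufc2 and Ndufs1, which gave 0.0671 and 0.0212 with each array centred on its median, and -0.0466 to 0.0306 and -0.1254 to 0.0143 when each array was left out in turn. Among the other complex I genes, 10 turned lower without control 7, to between -0.0040 (Ndufb5) and -0.10 (Ndufa9). The count of complex I genes at an unadjusted p under 0.05 was 2 with the trended robust prior, 0 with array weights and 2 with the methods' t-test. Over all genes it was 403 with the filter at the median level, where fewer genes were tested. Leaving out each array gave 0 to 2 complex I genes and 798 to 1050 of all genes at that threshold, 26 (without control 7) to 38 genes with a higher mean in HMB, a complex I mean difference of 0.0518 (without control 7) to 0.1759, a core minus accessory difference of -0.0851 to -0.0323, a median control SD of 0.1594 (without control 7) to 0.3301 and a median HMB SD of 0.1327 to 0.1506. Median centring raised the complex I difference to 0.2155. It subtracts each array's median over genes, which ran from 6.52 (HMB 5) to 6.91 (control 7). The difference of every gene therefore moved by the same amount. With the replicate number as a block, 0 complex I genes passed, 1 had an unadjusted p under 0.05 and 36 were higher. Same-numbered arrays correlated at -0.075 to 0.121 and none matched its own number best, so the numbers were not taken as pairs.

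The number of arrays limits the precision, and values near or below the intron percentile (Ndufb8, Ndufv3, Ndufa7 and Ndufa4l2) are the least certain.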

Other observations

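The 2 marker lists not given above belonged to nerve and skin. Schwann cell and nerve genes (7 measured) had a mean of 7.94 ± 0.22 in control and 7.32 ± 0.51 in HMB, with 7 of 7 genes lower (6 without control 7) beside 48.3% of all genes (50.2%). Of the 7, 4 had an unadjusted p under 0.05 by limma with and without control 7 (4.54% and 4.37% of all genes). None passed the adjusted threshold, and 5 lay above the intron percentile on no array. Keratinocyte genes (8 measured) were at 3.39 ± 0.18 and 3.75 ± 0.33, below the intron percentile on all arrays. All 8 were higher, beside 51.7% of all genes (5 and 49.8% without control 7). Of the 8, 2 had an unadjusted p under 0.05 by limma with and without control 7 (4.54% and 4.37% of all genes).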
